A study of Mus musculus with 2 samples.

Results

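The 54 genes described here encode the heterotrimeric G proteins and the RGS proteins (regulators of G protein signalling) of the mouse. They were chosen by gene symbol, as every alpha (Gna), beta (Gnb), gamma (Gng) or Rgs gene with a protein-coding transcript, out of 55536 annotated genes, of which 22015 are protein-coding genes of the nuclear genome. The symbol rule uses no measured value. The set holds 16 alpha, 5 beta, 12 gamma and 21 Rgs genes. Total RNA was sequenced from hippocampal tissue of female B6CASTF1/J mice, the first-generation hybrid of C57BL/6J and CAST/EiJ, aged 25 days. Each library started from 300 ng of RNA, was stranded and depleted of ribosomal RNA, and carried ERCC spike-in RNA. There is 1 group, with no treatment, mutation or control, and it has 2 biological replicates with separate biosample entries and the same donor entry, so n = 2 may not cover the variation between animals. The libraries held 34919989 expected counts in replicate 1 and 41206890 in replicate 2, and the parental alleles were not told apart.

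A heterotrimeric G protein carries the signal of a receptor on the cell surface into the cell. The active receptor makes the alpha subunit exchange GDP for GTP, after which alpha and the paired beta and gamma subunits separate and each act on enzymes and ion channels. The class of the alpha subunit sets the pathway. Gs proteins raise cyclic AMP, Gi/o proteins lower it or act on channels through beta and gamma, Gq/11 proteins activate phospholipase C beta, and G12/13 proteins activate guanine nucleotide exchange factors of small GTPases that shape the cytoskeleton. RGS proteins speed up GTP hydrolysis by alpha and so shorten the signal. In hippocampal neurons these proteins serve most modulatory transmitters, among them acetylcholine, serotonin, adenosine and GABA acting at GABA-B receptors.

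The alpha classes can be read from the ends of their coding sequences, where the receptor docks. The last 15 coding bases before the stop codon are shown for the expressed alpha genes, from the GENCODE M21 transcripts (build mm10), with the codon 4 places from the end in capitals. Pertussis toxin modifies a cysteine there, which TGC and TGT encode.
Gnas-208: caaTACgagctgctc
Gnao1-201: ggcTGCggcttgtac
Gnai2-201: gacTGTggcctcttc
Gnai1-201: gacTGTggtctcttc
Gnai3-201: gaaTGTgggctttat
Gnaz-201: tacATCggcctttgc
Gnaq-201: gagTACaatctggtc
Gna11-201: gagTACaacctggtg
Gna12-201: gacATCatgctgcag
Gna13-201: cagCTCatgctgcag
The cysteine codon was present in 7 of the 15 alpha genes read, namely Gnao1, Gnai1, Gnai2, Gnai3, Gnat1, Gnat2 and Gnat3. The remaining gene of the Gi/o class, Gnaz, has the isoleucine codon ATC in its place. The sequence of Gnal, the close relative of Gnas, is not shown and was not read.

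The gamma subunits differ at the last codon, which selects the lipid added to the protein. A leucine at the end is the signal for a geranylgeranyl group, and a serine for a farnesyl group. The last 15 coding bases of 6 gamma genes are shown, with the last codon in capitals.
Gng2-204: ttctgcgccatcCTT
Gng3-201: ttctgtgcgctcCTC
Gng7-204: ccttgcataattCTC
Gng13-201: aagtgcaccatcCTA
Gng11-201: agctgtgtcattTCA
Gngt2-205: acttgtgtgctaAGC
The first 4 of these end in a leucine codon and the others in a serine codon. Of the 12 gamma genes, 9 end in a leucine codon, and 3, Gng11, Gngt1 and Gngt2, end in a serine codon.

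Levels are given in TPM, the share of all transcripts after correction for transcript length, which allows comparison between genes. Of the 54 genes, 42 reached 1 TPM in both libraries, or 77.8%, where 57.6% of nuclear protein-coding genes did. At 10 TPM in both libraries the count was 33, against a background of 34.8%. At 50 TPM it was 11, against 8.51%, and at 100 TPM it was 5, against 3.52%. The 5 genes were Gnas, Gnao1, Gnb1, Gnb2 and Gng2. The median over the genes at 1 TPM or more was 30.4 TPM in these families and 14.98 TPM over nuclear protein-coding genes. Together the 54 genes took 2928 TPM in replicate 1 and 2936 TPM in replicate 2. In bulk tissue, fewer cells of a type and less RNA per cell cannot be told apart.

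**Figure D1:**
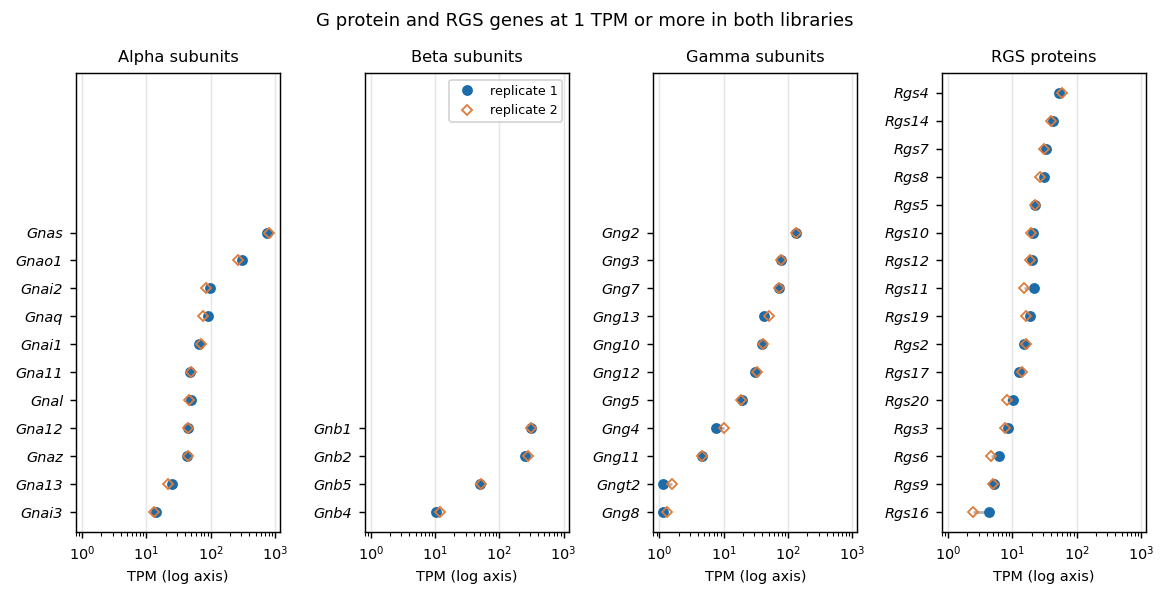
Level of each G protein and RGS gene at 1 TPM or more in both libraries, by family, on a logarithmic TPM axis, with filled circles for replicate 1 and open diamonds for replicate 2. Gnas stands highest at 766 and 800.4 TPM, every beta gene shown is apart from its neighbours, and the RGS genes lie between 2.41 and 59.2 TPM.

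The tissue label was checked against marker genes. Markers of the CA1, CA2, CA3 and dentate granule neurons were all at 1 TPM or more in both libraries, 3, 3, 2 and 3 genes in turn. One of the CA2 markers, Rgs14, is itself a member of the set. The 3 thalamus markers and 57.6% of nuclear protein-coding genes also reached 1 TPM in both libraries, so detection alone cannot tell tissues apart. The 3 excitatory neuron markers summed to 2981 and 2670 TPM in replicates 1 and 2, and the 3 astrocyte markers to 1014 and 925 TPM. The 3 oligodendrocyte markers summed to 1734 and 1768 TPM and the 4 interneuron markers to 363 and 386 TPM. The 3 choroid plexus markers summed to 26.9 and 59.2 TPM, with Folr1 listed at 0 in replicate 1, and the 3 thalamus markers to 28.4 and 19.0 TPM. Red blood cell markers were higher than these, with 3 genes that summed to 422 and 456 TPM.

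Among the alpha subunits Gnas led. Gnas lies at chr2:174284320-174346744 on the plus strand of mm10 and encodes the Gs alpha subunit that stimulates adenylyl cyclase. It stood at 766 and 800.4 TPM, a mean of 783 ± 24.5 (SD, n = 2), and it held 50.9% of all alpha TPM. Its relative Gnal, whose product Golf serves olfactory neurons and the striatum, was at 49.3 and 45.7 TPM. Of the striatal markers, Drd1 was at 1.42 and 2.08 TPM, Drd2 at 1.15 and 1.51 TPM and Adora2a at 1.23 and 1.5 TPM. Their part in the Gnal level was not tested.

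The Gi/o class was led by Gnao1 at chr8:93809966-93969388 on the plus strand, which encodes Go, the form of this class long known as abundant in brain. Gnao1 stood at 309 and 271 TPM, 290 ± 27.0 on average (SD, n = 2). The Gi genes, whose products inhibit adenylyl cyclase, followed in the order Gnai2, Gnai1 and Gnai3. Gnai2 was at 97.7 and 84.3 TPM, Gnai1 at 65.7 and 70.7 TPM and Gnai3 at 14.01 and 12.95 TPM. The libraries kept these 3 genes apart. Gnaz, the member that pertussis toxin does not modify, was at 43.4 and 44.3 TPM.

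The Gq/11 class, which acts through phospholipase C beta, held Gnaq at 91.5 and 76.4 TPM and Gna11 at 47.9 and 49.1 TPM. Gna14 and Gna15, members of this class with narrower expression, were at 0.97 and 0.95 TPM and at 1.38 and 0.96 TPM. Of the G12/13 class, Gna12 was at 44.3 and 45.3 TPM and Gna13 at 25.2 and 21.5 TPM. The pairs Gnai2 and Gnaq, Gna11 and Gnal, and Gna15 and Gna14 overlapped between libraries and cannot be ordered. Each of the other 9 neighbouring pairs whose higher gene averaged 1 TPM or more was apart, meaning only that the ranges of the 2 libraries did not overlap. The lowest value of Gna12, 44.32 TPM, barely exceeded the highest of Gnaz, 44.31 TPM. Gnal at its lowest, 45.72 TPM, was close to Gna12 at its highest, 45.25 TPM. The order within these 2 pairs is not settled.

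By class, Gs genes held 54.0 ± 2.24% of alpha TPM (SD, n = 2), Gi/o genes 32.9 ± 1.65%, Gq/11 genes 8.74 ± 0.528% and G12/13 genes 4.42 ± 0.0638%. The 7 genes found with the cysteine codon held 31.2% of alpha TPM in replicate 1 and 28.8% in replicate 2, with Gnal counted in the total. Expected counts, which are not corrected for length, weigh the genes differently. The effective length was 1560 bases for Gnas and 2825 bases for Gnao1 in replicate 1. Per count, the Gi/o share was 37.3% and that of Gs 39.03%.

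The sensory alpha subunits were at or near 0 in the first quantification. Gnat1 and Gnat2, the transducins of rods and cones, had 1 and 1 counts and 0 and 2 counts. Gnat3, the gustducin of taste cells, had 0 counts in either library, which allows up to 0.0988 and 0.0791 TPM, the value of 3 counts. The cone beta gene Gnb3 had 1 count in each library and the rod gamma gene Gngt1 had 0. The second quantification put Gnat1 at 0.829 and 0.569 TPM and Gngt1 at 0.362 and 0.319 TPM. Genes of other sensory partners were detected, with 17 and 22 counts for the cone gamma gene Gngt2 and higher levels, given below, for Gnb1 and Gng13.

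Gnb1 and Gnb2 led the beta subunits. Gnb1, at chr4:155491361-155559269 on the plus strand, stood at 306 and 317 TPM. Gnb2, at chr5:137528127-137533510 on the minus strand, stood at 249 and 281 TPM. Gnb5, a divergent beta subunit that binds RGS proteins of the R7 subfamily in place of a gamma subunit, was at 49.8 and 51.2 TPM. Gnb4 was at 10.5 and 11.8 TPM. All 4 neighbouring pairs of beta genes were apart in both libraries. The coding sequence of Gnb1 shares 77.0% of aligned bases with Gnb2, 77.2% with Gnb4 and 57.6% with Gnb5.

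The lead of Gnb1 over Gnb2 depended on which transcripts were counted. Over all transcripts, Gnb1 held 49.8% and 47.9% of beta TPM and Gnb2 40.4% and 42.5%. The transcript of Gnb2 with the highest level, Gnb2-213, is a retained-intron transcript of 712 bases that took 30.4 ± 2.37% of the gene (SD, n = 2). Over protein-coding transcripts alone, Gnb1 was at 284 and 295 TPM and Gnb2 at 134 and 133 TPM, so that Gnb1 held 61.5 ± 0.124% and Gnb2 28.4 ± 0.843% of the beta pool. The second deposited quantification gave Gnb2-213 a level of 0 and put Gnb1 at 61.7% of beta TPM over all its transcripts.

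**Figure D2:**
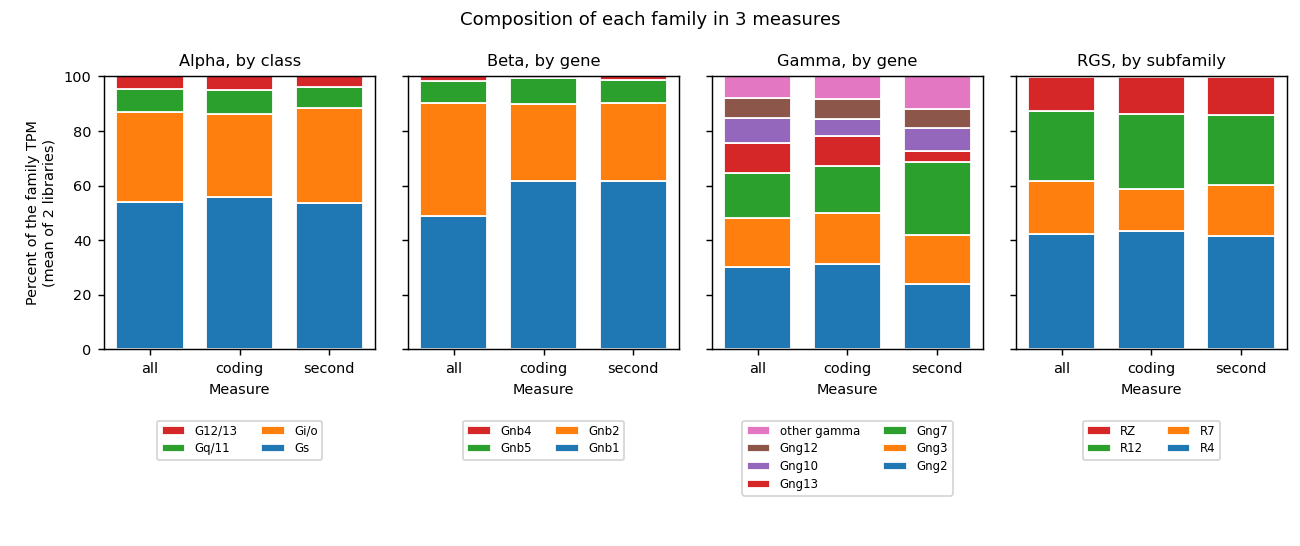
Composition of the alpha, beta, gamma and RGS families as the percent of each family's TPM, averaged over 2 libraries, for all transcripts (all), protein-coding transcripts alone (coding) and all transcripts of the second quantification (second). Gnb1 takes 48.9% of the beta pool over all transcripts, 61.5% over coding transcripts and 61.7% in the second quantification, whereas the alpha classes and RGS subfamilies move by a few percentage points.

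Of the gamma subunits, which anchor the complex to the membrane, Gng2 led. Gng2 lies at chr14:19872559-19977627 on the minus strand and stood at 133 and 131 TPM, 30.3 ± 0.939% of gamma TPM (SD, n = 2). Gng3, a gamma gene of neurons, was at 77.6 and 78.0 TPM. Gng7, at chr10:80948624-81014945 on the minus strand, is known in mice for its partnership with Golf in the striatum and was at 72.6 and 73.0 TPM. The libraries placed these 3 genes in the same order with no overlap.

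The next gamma genes were Gng13 at 43.1 and 50.8 TPM, Gng10 at 39.2 and 40.7 TPM, Gng12 at 30.7 and 33.4 TPM and Gng5 at 19.0 and 18.7 TPM. Gng13 is known from taste cells and retinal bipolar cells. Gng4 was at 7.67 and 10 TPM. The farnesylated type was scarce: Gng11 was at 4.61 and 4.67 TPM, the cone gene Gngt2 at 1.15 and 1.55 TPM, and the 3 genes with a serine codon at the end together held 1.34% and 1.40% of gamma TPM. Gng8, a gamma gene of olfactory and vomeronasal neurons, was at 1.13 and 1.31 TPM and could not be ordered against Gngt2. The other 10 neighbouring pairs of gamma genes were apart.

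The gamma order changed between the deposited quantifications. In the second, Gng7 came first at 142 and 142 TPM and Gng2 after it at 128 and 127 TPM, so that Gng2 held 23.8% of gamma TPM and Gng7 26.6%. In the first quantification the short transcript Gng2-206, of 393 bases, took 43.6% and 44.6% of the gene, and in the second it was listed at 0. Gng13 likewise rested on a transcript of 347 bases, Gng13-201, which took 99.2% and 98.4% of its TPM in the first quantification and 0 in the second. In the second quantification Gng13 was at 18.6 and 24.3 TPM. Gng12-209, of 380 bases, took 35.9% and 34.9% of Gng12 and was also at 0 in the second. For each of these 3 short transcripts the quantifications differed by more than the replicates did.

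RGS genes summed to 327 and 308 TPM, against 430 and 443 TPM for the gamma genes. That order does not hold on every scale, since RGS genes had 20642 and 24638 expected counts and gamma genes 18737 and 23436. The TPM order held in the second quantification, narrowly in replicate 1. The sums there were 524 and 511 TPM for RGS genes and 526 and 544 TPM for gamma genes. The R4 subfamily of small RGS proteins held 42.5 ± 2.02% of RGS TPM (SD, n = 2), R12 25.6 ± 0.271%, R7 19.2 ± 1.54% and RZ 12.6 ± 0.196%. Together R4 and R7 held 61.7 ± 0.480%.

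Rgs4 was the highest RGS gene. It lies at chr1:169741477-169747642 on the minus strand and encodes an R4 protein of neurons that acts on Gi/o and Gq subunits. It stood at 52.3 and 59.2 TPM. Rgs8, an R4 protein also known from cerebellar Purkinje cells, was at 30.9 and 26.8 TPM. Rgs5, the R4 gene used as a marker of pericytes, was at 22.7 and 22.5 TPM. The other mural cell markers Vtn and Pdgfrb were at 25.0 and 26.0 TPM and at 6.44 and 5.67 TPM. Rgs2, an R4 protein with a preference for Gq, was at 15.04 and 16.2 TPM, Rgs3 at 8.53 and 7.66 TPM and Rgs16 at 4.25 and 2.41 TPM.

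The R12 subfamily was led by Rgs14, at chr13:55369732-55384687 on the plus strand. Its product limits synaptic plasticity in CA2 pyramidal neurons. Rgs14 stood at 43.2 and 39.9 TPM, and the other CA2 markers Pcp4 and Amigo2 at 118 and 127 TPM and at 8.38 and 8.51 TPM. Rgs10, an RGS gene of microglia and neurons, was at 20.99 and 19.8 TPM, while the 4 microglia markers summed to 89.7 and 90.4 TPM. Rgs12, a large protein with several signalling domains, was at 20.2 and 18.6 TPM.

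In the R7 subfamily, whose proteins need Gnb5 for stability, Rgs7 was at 33.4 and 31.2 TPM, Rgs11 at 21.8 and 14.9 TPM, Rgs6 at 6.13 and 4.73 TPM and Rgs9, the form of striatum and retina, at 5.22 and 5.07 TPM. Gnb5 exceeded each of these genes alone in both libraries, but not their sum, which was 66.5 and 55.9 TPM. In the second quantification Gnb5 was at 92.9 and 101.7 TPM and the sum at 102.9 and 90.2 TPM. There Gnb5 exceeded the sum in replicate 2 but not in replicate 1. That sum includes Rgs11, whose TPM lay mostly in noncoding transcript classes, as given below. Of the proteins that anchor R7 complexes at the membrane, Rgs7bp was at 64.9 and 56.3 TPM and Gpr158 at 33.3 and 31.5 TPM. The anchors known from the retina, Rgs9bp and Gpr179, were at 0.13 and 0.12 TPM and at 0.10 and 0.06 TPM.

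The RZ subfamily, with a preference for Gz and Gi/o subunits, held Rgs19 at 18.8 and 16.1 TPM, Rgs17 at 12.8 and 13.98 TPM and Rgs20 at 10.1 and 8.37 TPM. Rgs10, Rgs12, Rgs11, Rgs19 and Rgs2 formed a chain of overlapping neighbours, as did Rgs20 with Rgs3 and Rgs6 with Rgs9. The other 10 neighbouring pairs of RGS genes whose higher gene averaged 1 TPM or more were apart. Not all of these orders held on other measures. In the second quantification Rgs8, at 61.7 and 56.1 TPM, was above Rgs7, at 53.3 and 51.2 TPM. There Rgs10, at 40.3 and 39.3 TPM, was also above Rgs5, at 31.2 and 32.5 TPM. Over protein-coding transcripts alone Rgs17, at 12.8 and 13.98 TPM, was above Rgs2, at 8.72 and 9.76 TPM. The RGS genes of lymphoid and blood cells were low or absent, with Rgs13 at 0.35 and 0.35 TPM, Rgs1 at 0.14 and 0.10 TPM and Rgs18 at 0.02 and 0.02 TPM. Rgs22, a gene of testis, was at 0.36 and 0.28 TPM, and Rgs21, a gene of taste cells, had 0 counts in both libraries.

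The products that G proteins act on or work with were read from a list of 41 genes. Of these, 34 were at 1 TPM or more in both libraries, where 57.6% of nuclear protein-coding genes were. Beside that share, detection counts over lists of a few genes say little. Of 15 effectors, 13 were at 1 TPM or more in both libraries. The calcium-stimulated adenylyl cyclase gene Adcy1 led at 151 and 123.2 TPM. Phospholipase C beta was represented by Plcb1 at 63.3 and 55.3 TPM, well above Plcb4 at 8.09 and 7.40 TPM and Plcb3 at 5.85 and 6.03 TPM. Of the G protein-gated potassium channels, Kcnj6 was at 52.9 and 40.3 TPM, Kcnj3 at 43.5 and 39.5 TPM and Kcnj9 at 25.0 and 24.0 TPM. The cardiac channel gene Kcnj5 was at 0.08 and 0.07 TPM.

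All 9 further genes with an RGS domain were detected. They were led by Arhgef12, an exchange factor that G12/13 activates, at 68.2 and 57.3 TPM. All 3 genes of G protein folding or assembly were detected too, namely Pdcl, which helps to assemble beta and gamma subunits, at 11.3 and 11.5 TPM, Ric8a, a chaperone of Gi/o, Gq and G12/13 subunits, at 35.4 and 32.1 TPM, and Ric8b, a chaperone of Gs and Golf, at 15.6 and 14.4 TPM. Of 6 receptor kinases, which end receptor signalling by phosphorylation, 5 were detected. Grk2 led them at 87.0 and 75.5 TPM, and the photoreceptor kinase gene Grk1 was at 0.01 and 0 TPM, with 1 and 0 counts, though the second quantification put it at 3.27 and 1.51 TPM. Of 4 genes with GoLoco motifs, which bind Gi subunits in the GDP form, Gpsm1 at 16.9 and 15.6 TPM and Gpsm2 at 7.57 and 7.27 TPM were detected.

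Gnas is a gene with several start sites. The imprinted locus holds upstream starts for the proteins Nesp55 and XLas, the untranslated first exon 1A and the Gs promoter. Transcripts that start at the Gs promoter, chr2:174330006-174330287, took 93.8% and 93.6% of Gnas TPM. Transcripts from the stretch of exon 1A, chr2:174327570-174328023, took 5.19% and 5.71%. Those from the most upstream stretch, chr2:174284320-174285358, took 0.0392% and 0.0437%, and those from the stretch of XLas, which share the start at base 174297859 of chromosome 2, 0.00784% and 0.00250%. In the second quantification the Gs promoter held 74.6% and 72.5%, the stretch of exon 1A 24.0% and 25.7%, and the most upstream stretch 1.15% and 1.66%. The Gs promoter led and exon 1A came next in both, but the shares of exon 1A and of the most upstream stretch were several times higher in the second, so their size is not settled by these tables.

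The Gs coding sequence comes in a long and a short form that differ by a 45-base exon at chr2:174336747-174336791 on the plus strand. The junctions are shown with 12 bases of the neighbouring exons on each side, with the exon in capitals.
Gnas-exon-in: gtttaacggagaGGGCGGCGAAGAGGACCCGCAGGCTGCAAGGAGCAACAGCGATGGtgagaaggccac
Gnas-exon-out: gtttaacggagatgagaaggccac
The exon was present in 64.2% and 65.3% of the TPM of the full Gs coding transcripts, 64.8 ± 0.763% on average (SD, n = 2). The long form has 1182 coding bases, and the short form 1137, or 1140 where the next exon starts 3 bases earlier. In the second quantification the share with the exon was 64.6% and 66.2%. The quantifications split the short form in different ways, since Gnas-206 took 28.6% of the gene in the first and 1.70% in the second, and Gnas-207 3.08% and 25.0%.

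Gnao1 makes 2 forms of Go by a choice between pairs of last coding exons. The last 30 coding bases of each form are shown, with the bases that differ in capitals.
Gnao1-201: gccaaCaaTctCcggggctgCggCTtGtac
Gnao1-207: gccaaAaaCctAcggggctgTggACtCtac
The first lies at chr8:93967023-93967052 and the other at chr8:93956220-93956249, both on the plus strand. The forms have the same coding length of 1062 bases and differ at 88 of them, and both keep a cysteine codon 4 places from the end. Gnao1-207, which ends in the proximal exons, took 14.1% and 13.5% of the TPM of the full coding transcripts, 13.8 ± 0.433% on average (SD, n = 2). The second quantification gave 14.6% and 14.2%. The distal form thus held over 85% of the TPM of the full coding transcripts in each library and quantification. These shares leave out Gnao1-206, which ends at base 93950403, before the last coding bases of either form. It was the leading Gnao1 transcript in the second quantification, with 26.6% of the gene.

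Gnal has an upstream start that gives 1344 coding bases and a downstream start that gives 1143. The upstream form took 61.2% and 59.9% in the first quantification and 54.3% and 52.5% in the second. For Gnb5 no such split could be fixed. The long coding form of 1185 bases, known in retina and other tissues alongside the short form of 1059 bases, took 3.86% and 9.35% in the first quantification and 52.7% and 56.3% in the second.

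Not all RNA of these genes was in protein-coding transcripts. Among the 37 members at 5 TPM or more in both libraries, 3 had at least 50% of their TPM in noncoding transcript classes (retained intron, nonsense-mediated decay or processed transcript) in both, where 7.77% of nuclear protein-coding genes did. The 3 were Rgs11 at 96.7% and 90.6%, Gnb4 at 78.3% and 68.2% and Rgs3 at 55.3% and 55.0%. The median share was 2.14% over the members and 10.4% over nuclear protein-coding genes at the same level.

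Rgs11, at chr17:26202951-26211324 on the plus strand, stood out in both quantifications. In the second its noncoding share was 96.4% and 100%. Its protein-coding transcripts were at 0.71 and 1.40 TPM, whereas the 3 highest retained-intron transcripts, Rgs11-208, Rgs11-211 and Rgs11-205, were at 5.42, 5.21 and 4.85 TPM in replicate 1 and 2.94, 2.79 and 2.48 TPM in replicate 2. Exons of Rgs11 overlap Arhgdig on the opposite strand, a gene at 31.6 and 33.7 TPM, and whether the counting used strand is not stated. The part of Arhgdig reads in these values was not tested. For Gnb4 and Rgs3 the second quantification gave lower noncoding shares, 37.1% and 32.7% for Gnb4 and 26.3% and 35.1% for Rgs3.

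Rgs2 had a transcript of the nonsense-mediated decay class, Rgs2-201, at 6.06 and 6.19 TPM beside the coding transcript Rgs2-202 at 6.32 and 7.14 TPM. Its noncoding share was 42.0% and 39.6% in the first quantification and 54.6% and 47.1% in the second. Counting protein-coding transcripts alone left 40 of the 42 detected members at 1 TPM in both libraries. Rgs11 and Gng8 were under it.

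**Figure D3:**
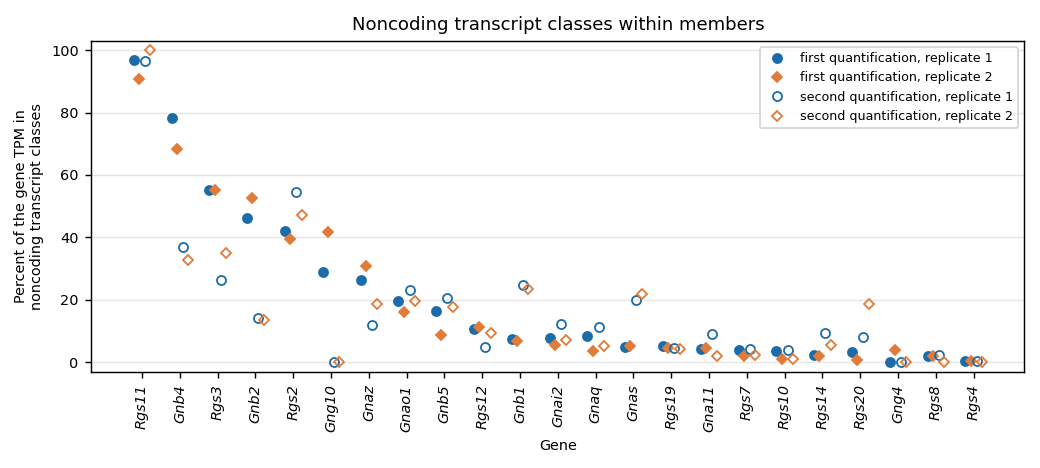
Percent of each gene's TPM in noncoding transcript classes, for the members at 5 TPM or more with a share above 0, with circles for replicate 1 and diamonds for replicate 2, filled for the first quantification and open for the second. Rgs11 lies above 90% in all 4 measurements, whereas Gnb4, Rgs3, Gnb2 and Gng10 fall by over 15 percentage points in the second quantification. Other genes rise there, among them Gnas, from 4.76% and 5.07% to 19.9% and 21.9%. Gnb1 rises from 7.34% and 6.90% to 24.7% and 23.5%.

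Of the same 37 members, 26 had at least 2 transcripts at 1 TPM or more in both libraries, and the leading transcript held over 50% in 27. Neither count has a share over other genes beside it, so they show nothing particular to these families. The leading transcript was of a noncoding class in 3, Gnb2, Rgs11 and Gnb4, where 6.48% of nuclear protein-coding genes had such a leader. In the second quantification 2 members had one, Rgs11 and Rgs2, where 8.22% of those genes did. It was the same transcript in both quantifications for 29 members, or 29 of 37, against 78.2% of nuclear protein-coding genes. Single-transcript genes included Gnai1 and Gnai3, each with 100% in 1 transcript. Rgs7 was split over 3 coding transcripts, Rgs7-206 with 50.4 ± 1.83%, Rgs7-207 with 28.2 ± 1.23% and Rgs7-203 with 18.4 ± 0.621% (SD, n = 2).

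The replicates were compared as replicate 1 over replicate 2, for the 40 members with at least 200 counts over both libraries. None was 2-fold higher in replicate 1, where 0.725% of all genes and 0.124% of nuclear protein-coding genes were, and none was 2-fold lower, where 0.1% and 0.0744% were. With 1 library against 1 there is no test. The ratios ran from 0.767 for Gng4 to 1.76 for Rgs16, and 36 of the 40, or 90%, lay within 1.25-fold, as did 86.7% of nuclear protein-coding genes. Of the 40, 21 were higher in replicate 1 and 19 lower, and 64.4% of nuclear protein-coding genes were higher. The 95% counting interval lay above 1 for 14 members and below 1 for 10. It covers counting error only and is narrow at high counts. No share over other genes is given beside these counts, so they show nothing particular to these families.

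At 1.5-fold, 1 member was higher in replicate 1, where 3.33% of all genes and 1.92% of nuclear protein-coding genes were. It was Rgs16, an R4 gene at chr1:153740349-153745468 on the plus strand, with 229 counts in replicate 1 and 162 in replicate 2 and a ratio of 1.76 (counting interval 1.44 to 2.17). The 3 thalamus markers were all detected and summed to 28.4 and 19.0 TPM. Prkcd had a ratio of 1.58 and Tcf7l2 of 1.61, whereas Ramp3 had a ratio of 0.99, and their part in the Rgs16 difference was not tested. Rgs11 followed at 1.46 (1.32 to 1.61). At the other end were Gng4 at 0.767 (0.689 to 0.853) and Gng13 at 0.849 (0.722 to 0.996). No member was 1.5-fold lower, where 0.555% of all genes and 0.372% of nuclear protein-coding genes were. On the partner list, Adcy2, an adenylyl cyclase gene, was at 46.5 and 25.5 TPM, a ratio of 1.82, and Arhgef1 at 36.8 and 23.5 TPM, a ratio of 1.57.

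**Figure D4:**
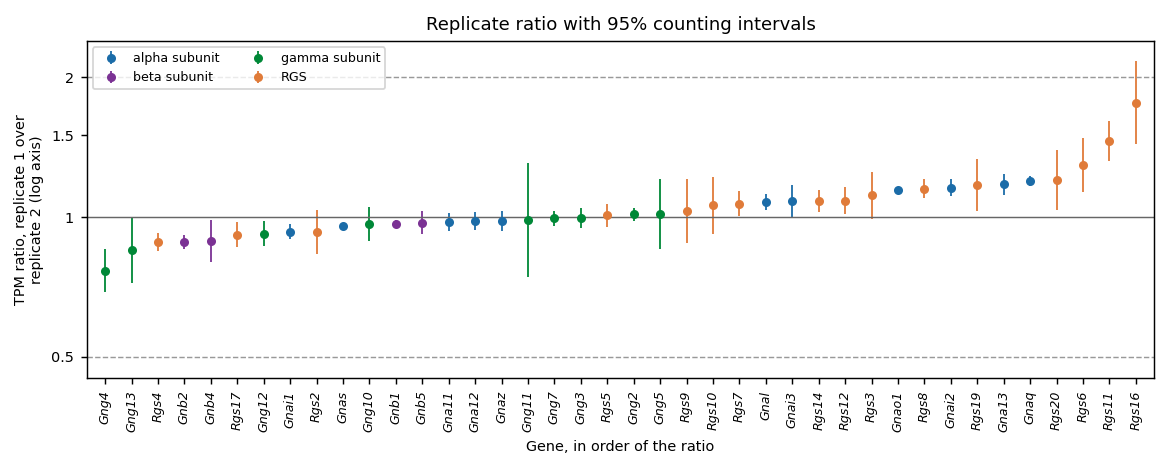
TPM in replicate 1 over replicate 2 on a logarithmic axis for the 40 members with at least 200 counts, in order of the ratio, with 95% counting intervals, colours for the families and dashed lines at 2-fold. All points lie between 0.767 for Gng4 and 1.76 for Rgs16, and the 4 highest ratios are RGS genes.

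The deposited quantifications ranked the members alike. Across the 54 genes, which share the same 2 libraries, Spearman's rank correlation between them was 0.983 and Pearson's r on log2(TPM + 1) was 0.991, given as a description. Nuclear protein-coding genes took 43.4% and 42.0% of TPM in the first quantification and 73.5% and 74.0% in the second, so both were rescaled over those genes before levels were set side by side. Of the 37 members at 5 TPM or more, 1 was then at least 2-fold lower in the second, where 0.781% of nuclear protein-coding genes were, and none was 2-fold higher, where 0.294% were. It was Gng13, at chr17:25717171-25719406 on the plus strand, with 0.264 of its first level. Gng2 came to 0.558, Gng12 to 0.654, Gng10 to 0.674 and Gnb2 to 0.719, whereas Gnb1 came to 1.33 and Gnao1 to 1.29.

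**Figure D5:**
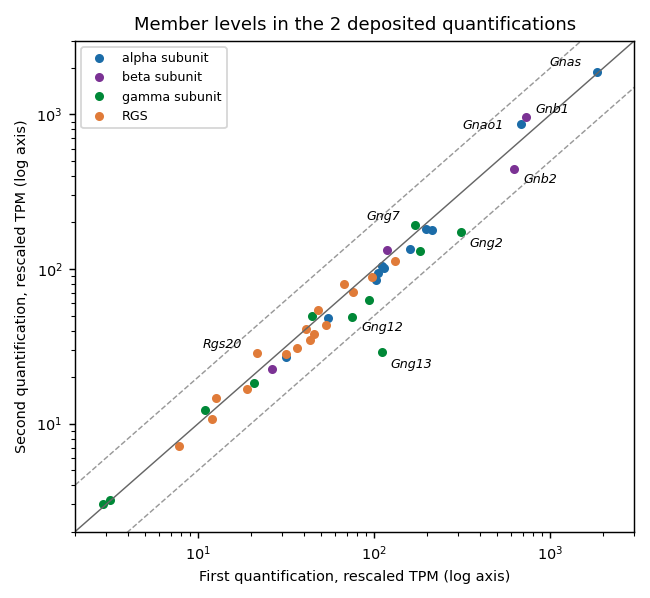
Level of the 42 members at 1 TPM or more in both libraries in the first quantification (horizontal) and the second (vertical), as mean TPM rescaled over nuclear protein-coding genes, on logarithmic axes, with the line of equality and dashed lines at 2-fold. Gng13 alone lies below the lower dashed line, at 0.264 of its first level.

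Several members share bases with other genes. Exons of 19 members overlap an exon of another gene, 17 of them on the opposite strand and 2, Gnb2 and Gng10, on the same strand. The share over other genes was not counted, so such overlap is not shown to be particular to these families. The gene on the opposite strand was the higher in both libraries for 3 members. Rgs20 overlaps Atp6v1h, at 77.5 and 82.1 TPM, Rgs11 overlaps Arhgdig, and Gngt2 overlaps Abi3, at 3.09 and 2.18 TPM. Gng3 overlaps Bscl2, which at 43.3 and 44.9 TPM was the lower gene. The coding sequences of close relatives shared up to 80.7% of aligned bases, for Gnaq and Gna11, and how reads matching more than 1 relative were divided is not given in the sources used here.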

How the data were processed

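Ribosomal-RNA-depleted, stranded total RNA libraries of mouse hippocampus, replicates 1 and 2 of 1 group per the labels, were analysed from deposited tables. Each library has gene and transcript tables, deposited with expected counts and TPM columns in the RSEM layout, per the file headers. The deposited transcript table also has a percent column, each transcript's share of its gene. The deposited second quantification holds estimated counts and TPM per transcript in the kallisto format. Per the labels the assembly is mm10, and names follow GENCODE M21. The aligner is not given in the sources used here. Depth was 34919989 and 41206890 expected counts in replicates 1 and 2.

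TPM was used as deposited. The second quantification was summed per gene. Members were found by a symbol rule that uses no measured value, and every member is accounted for. Members at 1 TPM or more in both libraries are named with both values. Members and gene lists were chosen with earlier results of these data known. Ratios used genes with at least 200 counts over both libraries. Intervals are exact Clopper-Pearson 95% intervals, and with the floor of 3 counts they cover counting error only. Medians of ratios were taken on the log2(TPM + 1) scale, where differences of low genes are understated. Neighbours in the order of levels were called apart where the ranges of both libraries did not overlap. With 1 library against 1 there is no test. Scaling alternatives used edgeR 4.0.16 (TMM) and DESeq2 1.42.0 size factors on expected counts rounded to whole numbers, in R 4.3.3. Other steps used scipy 1.17.1, Biopython 1.88, matplotlib 3.10.9, numpy 2.4.6 and pandas 2.3.3 in Python 3.11.15. Sequences came from the GENCODE M21 transcripts.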

Additional observations from a re-analysis of the deposited data

How the results depend on the processing

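Over protein-coding transcripts alone, an alternative chosen after seeing the data, the Gi/o share of alpha TPM was 30.6%, the Gnb1 share of beta TPM 61.5%, the Gng2 share of gamma TPM 31.4% and the R4 and R7 share of RGS TPM 58.6%, against 32.9%, 48.9%, 30.3% and 61.7% over all transcripts. On expected counts these shares were 37.3%, 67.2%, 36.0% and 66.6%, and in the second quantification 34.9%, 61.7%, 23.8% and 60.2%. Leaving out 1 replicate gave 31.7% to 34.0%, 47.9% to 49.8%, 29.6% to 31.0% and 61.4% to 62.0%. At 1.5-fold in place of 2-fold, 1 member was higher in replicate 1, in place of 0. The median log2 ratio of the members, 0 in TPM, was 0.15 under spike-in scaling, where nuclear protein-coding genes had a median of 0.17, and -0.05 under TMM scaling. The other alternatives left the count of detected members within 1.5 times of 42, and the counts past 2-fold at 0. No paired analysis was possible because there is 1 group. The second quantification moved the mean TPM of 51 of 54 members by more than the spread between replicates, and the leading transcript share of 29 of 37.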
